A study of Mus musculus with 9 samples.

Results

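Ttll6 encodes an enzyme that lengthens glutamate chains on tubulin, and its mRNA was low in sciatic nerves that lacked TDP-43 in myelinating glia. The 10 genes described here are Ttll6, the further tubulin tyrosine ligase-like genes Ttll1, Ttll3, Ttll4, Ttll5, Ttll7, Ttll11 and Ttll12, and the deglutamylases Agtpbp1 and Agbl5. Ttll6 was chosen by its fall in cKO nerves, and the other 9 because they encode enzymes of the same family or the enzymes that reverse the modification. All 10 were among the 36121 genes of the table, and all 10 reached the minimum mean of 1 that 15014 genes passed to be tested.

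Sciatic nerves were taken from C57BL6 mice 21 days old, and 1 library was made from each of 9 mice. The 3 control mice were Tardbp-fl/fl without Cre, the 3 cHet mice carried Cnp-Cre with 1 floxed allele (Tardbp-fl/+), and the 3 cKO mice carried Cnp-Cre with both alleles floxed (Tardbp-fl/fl). Each genotype had 2 females and 1 male. Tardbp encodes TDP-43, an RNA-binding protein that acts in splicing. Cre was expressed from the Cnp gene, which is active in Schwann cells and in oligodendrocytes, so the deletion was aimed at these cells. Whether the other cells of the nerve kept Tardbp cannot be read from whole nerve. A floxed allele was thus present in all 9 mice, and no group carried Cnp-Cre alone. Whole nerve was sequenced, in which fewer cells of a type and less RNA per cell cannot be told apart.

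Polyglutamylation adds chains of glutamate to the tails of tubulin inside the assembled microtubule. Some TTLL enzymes set the first glutamate, others lengthen the chain, and cytosolic carboxypeptidases trim it or remove its branch point. The modification is abundant on axonal microtubules and on the axonemes of cilia, where it tunes motors, severing enzymes and microtubule-associated proteins.

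The labels were first compared with Tardbp itself, because the genotype field of 3 libraries, cHet mouse ID-2742 and cKO mice ID-2744 and ID-2747, differed from the sample title. Tardbp stood at 185, 194 and 217 normalized TPM in control, 177, 179 and 186 in cHet and 103, 94.2 and 103 in cKO. Cnp, the gene that carries the Cre insertion, stood at 1168 to 1700 in control, 640 to 849 in cHet and 498 to 799 in cKO. By these genes, cKO mice ID-2744 and ID-2747 were far below the lowest cHet nerve in Tardbp, and cHet mouse ID-2742 was far below the lowest control in Cnp. Titles were used throughout. The 10 myelinating Schwann cell markers summed to 101165 to 130024 in control, 94403 to 133186 in cHet and 76209 to 106565 in cKO. The cKO range thus lay lower than the others, with overlap. Summed over all genes, the libraries gave 934932 to 1158094. Values are TPM, transcript abundances scaled for gene length, which the authors scaled further between libraries. They keep no read counts, so no counting error can be set beside a value. The p-values rest on the spread between libraries, in which differences between mice and technical differences cannot be told apart.

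Ttll6 lies on the plus strand of chromosome 11 (GRCm38, chr11:96133786-96165451) and has 2 annotated transcripts. The 300 bases around its start in RefSeq (GRCm38.p6, chr11:96133536-96133835, plus strand) are shown because the results turn on this gene. They hold 250 bases before the start and 50 from it, with the TATAAA motif in capitals where it was found on both strands in overlap. The bases from the annotated start on begin with ATG, the letters of a start codon. Whether transcription begins there or further upstream was not tested, so the window may not be centred on the true start.
Ttll6 start: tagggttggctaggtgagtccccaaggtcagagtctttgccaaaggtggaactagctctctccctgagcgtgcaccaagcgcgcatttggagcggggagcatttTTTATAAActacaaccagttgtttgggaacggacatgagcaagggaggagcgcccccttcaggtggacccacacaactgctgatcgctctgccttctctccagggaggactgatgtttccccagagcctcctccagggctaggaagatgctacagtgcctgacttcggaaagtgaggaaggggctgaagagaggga

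The plus-strand TATAAA begins 144 bases before the annotated start, and 13.6% of the 32851 promoters of the table hold these letters on either strand. The letters CCAAT were searched on both strands too, and 37.4% of all promoters hold them. GGGCGG is in 35.7% of all promoters by the same search. ACAAAG is in 18.7%. None of these was in the window of Ttll6. The last exon of both Ttll6 transcripts (GENCODE M21) holds a run of 5 TG units in the 3′ untranslated part, which is UG in the RNA. Runs of UG are the letters TDP-43 is known to bind, and the run is shown for that reason in a window of 30 bases (chr11:96164944-96164973, plus strand) with the run in capitals.
Ttll6 TG run: ttcacagcgcTGTGTGTGTGggaccaggac

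Such a run was present in the last 500 bases of the longest coding transcript of 498 of 21425 genes (2.32%), a length set so as to include the run in Ttll6. None of the other 9 genes described here held one in that window. Calcoco2, the nearest gene upstream of Ttll6, which was also low in cKO nerves, held none there either. The count covers transcript ends only and not introns. A match of letters is a description and not a binding site.

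Ttll6 mRNA was 6.55, 6.20 and 6.06 normalized TPM in the control nerves. It was 6.81, 9.95 and 8.05 in cHet nerves and 1.51, 1.45 and 1.33 in cKO nerves. The 3 cKO values lay close together and far below those of the other 6 mice, and the highest cKO value (1.51) was well under the lowest of the others (6.06). In cKO the mean of 1.43 ± 0.0938 (SD, n = 3) was 22.8% of the control mean of 6.27 ± 0.252 (SD, n = 3) and 17.3% of the cHet mean of 8.27 ± 1.59 (SD, n = 3). On the log2(value + 0.5) scale, which understates the change of low genes, the differences were -1.81 and -2.17. Ttll6 was selected on these differences, so they are given without a test. From the lowest upwards, its log2 fold change was number 29 of 15014 against control and number 7 against cHet. With only the libraries whose genotype field matches the title, the log2 fold change against control was -1.89, which rests on 1 cKO library, that of mouse ID-2748.

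**Figure D1:**
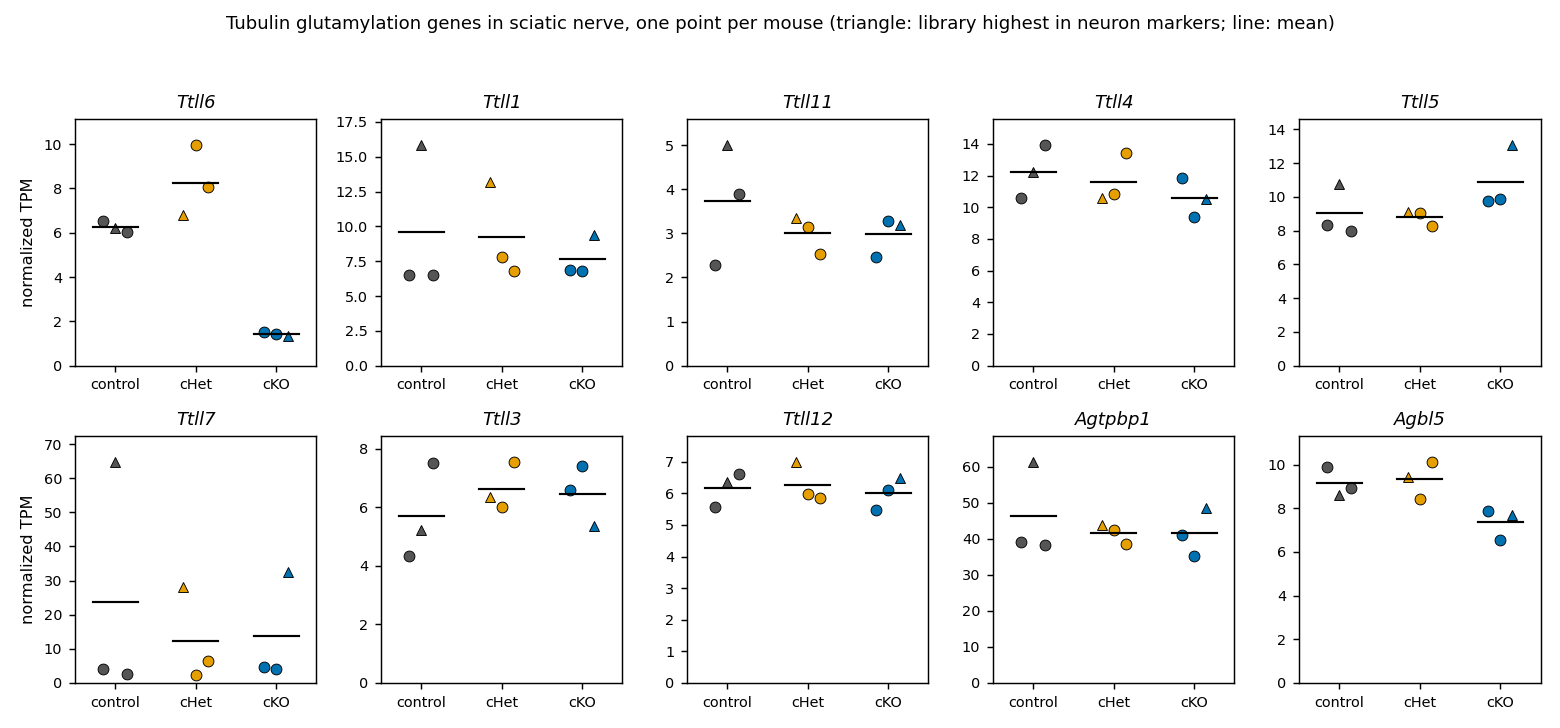
Level of each of the 10 genes in normalized TPM (vertical axes, each from 0) in control, cHet and cKO nerves, with 1 point per mouse, a triangle for the library of each genotype that was highest in neuron markers, and a line at the group mean. The cKO points of Ttll6 lie between 1.33 and 1.51, and the triangles of Ttll7 stand far above the other points of their group.

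The comparison of cHet with control was not used to choose Ttll6, although it shares the control libraries. All 3 cHet nerves were above all 3 controls, with 1 of the 10 genes showing such a separation in either direction against 7.1% of all tested genes. The log2 difference was 0.36 with a 95% interval of -0.013 to 0.73 in the limma fit, and it did not pass after adjustment over all genes (limma adjusted p = 1.0). None of the 10 genes was called between cHet and control at an adjusted p under 0.05, and 0% of all genes were called. At an unadjusted p under 0.05 the fit held 0 of the 10 and 408 of the 15014 genes (2.72%). None of the 3 cHet nerves was below the controls in Ttll6. Whether Cnp-Cre or the loss of 1 Tardbp allele had a part in its level was not tested.

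None of the other 9 genes was called between cKO and control by limma, where 1.57% of all tested genes were called in either direction. None was called between cKO and cHet, where 1.71% of all genes were. At an unadjusted p under 0.05 there was 1 of the 9 in each of these comparisons, Agbl5 in both, beside 12.9% of all tested genes against control and 14.6% against cHet, so that 1 of 9 is close to the background. Their log2 differences lay between -0.30 and 0.26 against control and between -0.32 and 0.28 against cHet. The median difference of all genes was -0.023 and 0.016. The 95% interval stayed within a log2 change of 1 either way for 7 of the 9, and it reached past that for Ttll1 and Ttll7.

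**Figure D2:**
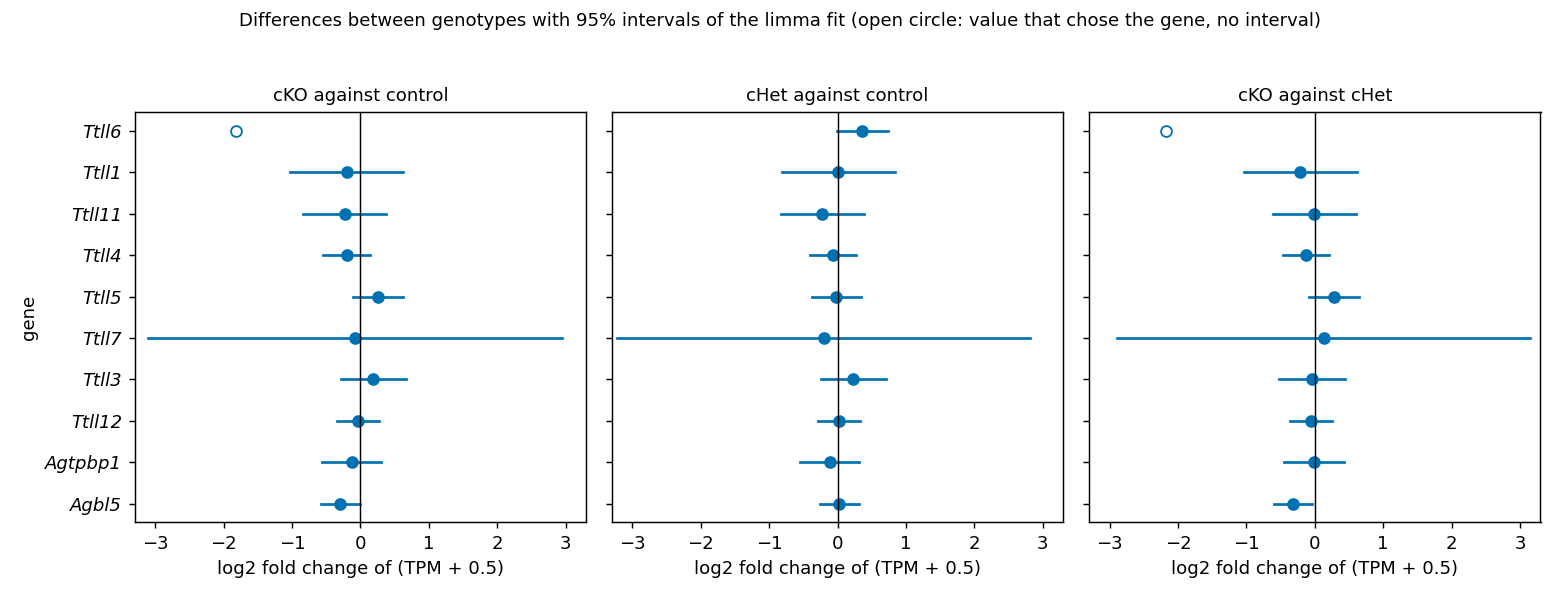
Log2 fold change of normalized TPM + 0.5 (horizontal axes) of the 10 genes in the comparisons of cKO with control, cHet with control and cKO with cHet, with points for the estimate and bars for the 95% interval from limma. Open circles mark Ttll6 at -1.81 and -2.17, the values it was chosen by, which carry no interval, and the interval of Ttll7 spans about the whole axis.

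Ttll1 and Ttll11 lengthen chains, as Ttll6 does. Ttll1, the catalytic subunit of a multi-protein polyglutamylase, stood at 6.53, 15.8 and 6.51 normalized TPM in control, 13.2, 7.80 and 6.78 in cHet and 6.87, 6.83 and 9.36 in cKO. Ttll11 stood at 2.28, 4.998 and 3.90 in control, 3.34, 3.14 and 2.52 in cHet and 2.47, 3.29 and 3.19 in cKO. The genotypes overlapped for both. Their log2 differences between cKO and control were -0.20 (95% interval -1.03 to 0.63, limma adjusted p = 0.892) and -0.23 (95% interval -0.83 to 0.37, limma adjusted p = 0.803).

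Ttll4, Ttll5 and Ttll7 are able to place the first glutamate, and Ttll7 acts on beta-tubulin and is abundant in neurons. Ttll4 was the highest of the 6 polyglutamylases in control by its median, at 10.6, 12.2 and 13.9 normalized TPM, against 10.6, 10.8 and 13.5 in cHet and 11.8, 9.37 and 10.5 in cKO. Its log2 difference between cKO and control was -0.20 (95% interval -0.54 to 0.14, limma adjusted p = 0.651). The ranges of its 3 genotypes overlapped. Ttll5 stood at 8.31, 10.8 and 7.99 in control, 9.12, 9.06 and 8.26 in cHet and 9.73, 9.90 and 13.1 in cKO. All cKO values of Ttll5 were above all cHet values, while control overlapped both. Its log2 difference was 0.26 against control (limma adjusted p = 0.567) and 0.28 against cHet (95% interval -0.080 to 0.64, limma adjusted p = 0.468). Ttll7 stood at 4.13, 64.6 and 2.45 in control, 28.2, 2.44 and 6.37 in cHet and 4.64, 3.99 and 32.5 in cKO. In each genotype 1 mouse was several times above the other 2, so that the interval of its log2 difference between cKO and control ran from -3.10 to 2.95.

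Ttll3, which adds glycine in place of glutamate, and Ttll12, a divergent member of the family, did not follow genotype. Ttll3 stood at 4.33, 5.22 and 7.52 normalized TPM in control, 6.35, 6.02 and 7.53 in cHet and 6.60, 7.40 and 5.36 in cKO. Ttll12 stood at 5.56, 6.35 and 6.63 in control, 6.98, 5.97 and 5.87 in cHet and 5.48, 6.09 and 6.49 in cKO. Ttll12 had a narrow interval for its log2 difference between cKO and control, from -0.34 to 0.27 around -0.034. Exons of Ttll3 overlap those of Arpc4 on the same strand, a gene with a mean of 89.8, so the Ttll3 values are uncertain.

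Of the deglutamylases, Agtpbp1, which shortens long chains and whose loss leads to degeneration of Purkinje cells in mice, had the highest median of the 10 genes in each genotype. In control mouse ID-2746 Ttll7 (64.6) was above it. It stood at 39.1, 61.2 and 38.2 normalized TPM in control, 43.8, 42.3 and 38.6 in cHet and 41.0, 35.1 and 48.5 in cKO, with overlap of all genotypes. Agbl5, the enzyme known for removing the branch-point glutamate, stood at 9.91, 8.63 and 8.94 in control, 9.44, 8.43 and 10.1 in cHet and 7.87, 6.56 and 7.70 in cKO. All 3 cKO values of Agbl5 were below all of the other 6 nerves, and their mean was 80.5% of that in control. The log2 difference was -0.30 ± 0.12 (SE) against control (limma adjusted p = 0.362) and -0.32 ± 0.12 (SE) against cHet (limma adjusted p = 0.284). It did not pass in either comparison. An exon of Agbl5 overlaps Ost4 on the opposite strand, which has a mean of 225, and the strand setting of the libraries is not given, so the 2 genes cannot be told apart there.

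Agbl5 was the 1 gene of the 9 whose cKO nerves were apart from control, a separation in either direction seen in 17.4% of all tested genes. Against cHet it was 2 of the 9, Agbl5 below and Ttll5 above, with 24.3% of all genes apart in either direction. All 3 cKO values lay below all 6 others for 1 of the 9, where 5.65% of all tested genes did. Counts of 1 or 2 among 9 are close to what these background shares give and are no result about the 9.

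The order of levels was read in the control nerves by medians. Agtpbp1 (39.1) was apart from Ttll4 (12.2), and Ttll4 was apart from Agbl5 (8.94). From there each gene overlapped its next neighbour, through Ttll5 (8.31), Ttll1 (6.53), Ttll12 (6.35), Ttll6 (6.20), Ttll3 (5.22) and Ttll7 (4.13) to Ttll11 (3.90). Ttll6 made up 17.0%, 5.41% and 14.8% of the summed level of the 6 polyglutamylases in control, 9.55%, 23.0% and 17.7% in cHet and 4.07%, 4.15% and 1.90% in cKO. Much of the spread within a genotype came with Ttll7, which alone held 5.64% to 56.4% of that sum. Over the 5 enzymes without Ttll7, the share of Ttll6 was 12.4% to 19.1% in control, 15.8% to 24.4% in cHet and 3.54% to 4.69% in cKO. The rule that chose Ttll6 sets this fall of its share. The summed level of these 5 was 34.3, 50.04 and 38.4 in control, 43.0, 40.8 and 39.1 in cHet and 32.4, 30.8 and 37.4 in cKO.

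Within each genotype 1 library stood apart in neuron markers, a list that includes the neurofilament genes Nefl, Nefm and Nefh. The 10 markers summed to 3463 normalized TPM in control mouse ID-2746 against 175 to 195 in the other 2 controls. They summed to 1335 in cHet mouse ID-2742 against 173 to 352 in the other 2, and to 1487 in cKO mouse ID-2748 against 295 to 327 in the other 2. None of the 10 markers was at 0 in any library.

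These were the libraries in which Ttll7 was high. Its level there was 19.6 times the mean of the other 2 mice in control, 6.41 times in cHet and 7.53 times in cKO. Ttll1 was 2.43, 1.81 and 1.37 times higher there and Agtpbp1 1.58, 1.08 and 1.27 times higher. With Ttll5, 4 of the 10 genes were highest in this library in all 3 genotypes, as were 13.4% of all tested genes. Ttll6 was not among them, at 0.984, 0.756 and 0.897 times the mean of the other 2 mice. Whether neuronal RNA had a part in these levels was not tested.

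**Figure D3:**
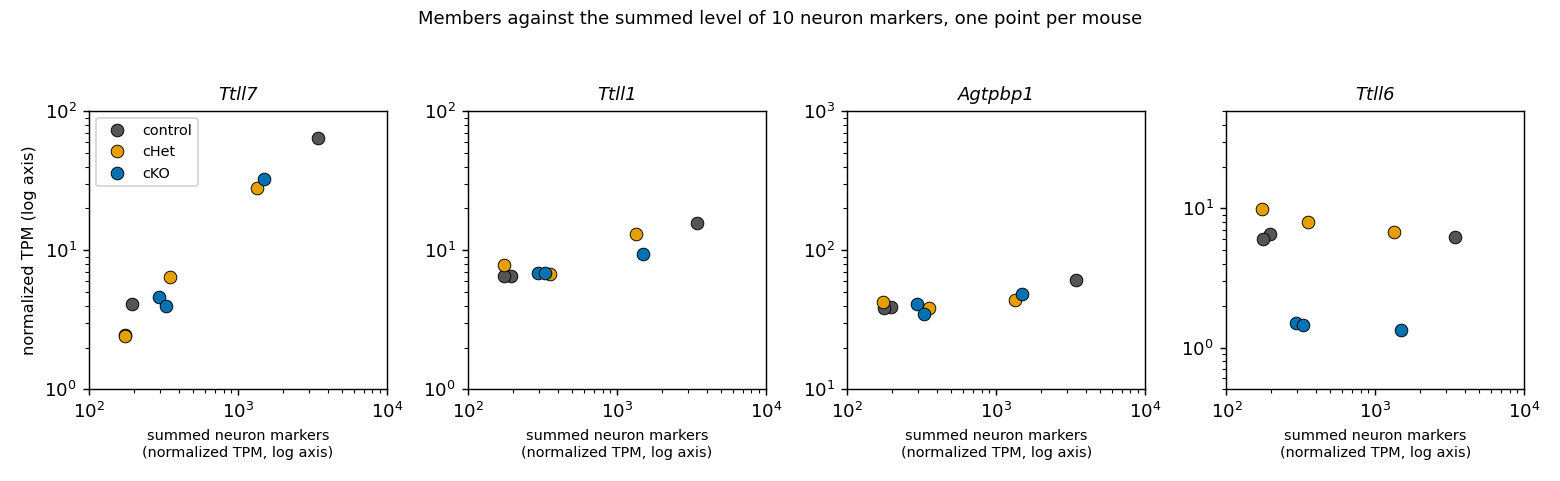
Normalized TPM of Ttll7, Ttll1, Agtpbp1 and Ttll6 (vertical log axes) against the summed normalized TPM of 10 neuron markers (horizontal log axes), with 1 point per mouse coloured by genotype. Ttll7 runs from 2.44 to 64.6 with the marker sum, while the Ttll6 points split by genotype and the 3 cKO nerves stay at 1.33 to 1.51 across marker sums of 295 to 1487.

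Without these 3 libraries the log2 difference of Ttll6 between cKO and control was -1.78, that of Agbl5 was -0.37, that of Ttll1 was 0.066 and that of Agtpbp1 was -0.027. The difference of Ttll7 was then 0.38 and that of Ttll5 0.25. None of the other 9 genes was called there, where 16 of the 15014 genes were called between cKO and control. The marker lists of other tissues were uneven too. The 8 skeletal muscle markers summed to 16219 in control mouse ID-2743 and 8479 in cKO mouse ID-2748 against 22.5 to 573 in the other 7 mice. The 8 adipocyte markers summed to 2224 and 3093 in control mice ID-2743 and ID-2754 against 71.1 to 586 in the other 7. Ttll6 in the controls ranged from 6.06 to 6.55 across these libraries.

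Since Ttll6 is best known from motile cilia, genes of the ciliary axoneme were followed. Of 16 such genes, 7 passed the minimum mean, and none was called in any comparison. The 16 summed to 28.97 to 41.5 normalized TPM in control, 32.0 to 41.4 in cHet and 32.4 to 40.4 in cKO. Drc1, Ccdc39, Ccdc40 and Dnaic2 had means of 8.32, 7.56, 6.54 and 6.27. Tekt1, Spag6l and Rsph4a were at 0 in at least 1 library, and Foxj1, the master regulator of motile cilia, had a mean of 1.08. All 3 cKO values of Ccdc40 lay above the other 6, where 6.17% of all tested genes did. Those of Ccdc39 and Rsph1 lay below cHet alone, where 24.3% of all genes were apart in either direction.

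The remaining TTLL and deglutamylase genes were mostly low. Agbl3, another deglutamylase, had the highest mean, 20.2 normalized TPM, with a range of 16.9 to 22.4 over the 9 nerves. Ttll9 had a mean of 6.83 (4.65 to 8.20) and Ttll13 one of 1.36 (0.772 to 2.45). These 3 were tested, and none was called in any comparison. Ttll2, Ttll8, Ttll10, Agbl1, Agbl2 and Agbl4 had means of 0.0354 to 0.664, under the minimum of 1.

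Further genes that act on or with the modified microtubule were taken as 6 lists. They covered partners of the TTLL1 complex, detyrosination and tyrosination, acetylation, alpha- and beta-tubulins, severing enzymes and microtubule-associated proteins. Of 46 listed genes 43 were tested, and 0 were called by limma in the comparison of cKO with control, of cHet with control or of cKO with cHet. At an unadjusted p under 0.05 there were 7, 0 and 4 of the 43, beside the 12.9%, 2.72% and 14.6% of all tested genes given above. The median log2 difference over the 43 was -0.18 between cKO and control and -0.15 between cKO and cHet, beside -0.023 and 0.016 over all genes. The lowest adjusted p among them was 0.119, for Spast between cKO and control.

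Of the 43, 4 had all 3 cKO nerves below the other 6, where 5.65% of all tested genes did, and 0 had all 3 above them, where 6.17% of all tested genes did. The 4 were Vash1, Spast, Tuba1a and Tuba1b, named after their values were seen. Atat1, a tubulin acetyltransferase, was above control alone and Fignl2, a severing enzyme, above cHet alone in all 3 cKO nerves. The severing enzymes Fign and Katnal1 were below control alone and below cHet alone. Tuba1a, a main alpha-tubulin, stood at 1752, 2222 and 1434 normalized TPM in control, 1939, 1844 and 1546 in cHet and 1091, 1291 and 1239 in cKO, a log2 difference from control of -0.56 (limma adjusted p = 0.213). Tuba1b stood at 691 to 1004 in control, 691 to 772 in cHet and 487 to 629 in cKO. Spast, a severing enzyme that responds to glutamate chains, stood at 24.1, 26.5 and 27.2 in control, 23.9, 24.7 and 23.3 in cHet and 19.8, 21.8 and 18.1 in cKO. Vash1, a tubulin carboxypeptidase that removes the terminal tyrosine, stood at 19.7 to 32.2, 22.5 to 33.9 and 16.2 to 19.4. None of the 4 passed in either comparison with cKO, and the gap of Vash1 between the highest cKO nerve (19.4) and the lowest control (19.7) was small.

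The genes most like Ttll6 over the 9 libraries were found by the root mean square difference between mean-centred log2 profiles, among 14809 tested genes with a symbol. They were Adgb (0.172), Gid4 (0.193), Calcoco2 (0.253), Chp2 (0.264) and Sgcd (0.322). Adgb encodes androglobin and Gid4 the substrate receptor of a ubiquitin ligase. Adgb had a mean of 11.3 in control, 13.9 in cHet and 3.42 in cKO. Gid4 had means of 50.4, 48.8 and 12.4. Chp2, a calcineurin-like calcium-binding protein, had means of 97.6, 90.0 and 24.2, and Sgcd, delta-sarcoglycan, had means of 48.9, 57.1 and 19.4. All 5 were picked for the pattern, so no test of it is given. Of the 9 other genes of the tubulin set, Agbl5 came nearest, at 0.827, ranked 1179 of 14809.

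Calcoco2 is also the nearest gene upstream of Ttll6. It encodes an autophagy receptor and runs on the minus strand (chr11:96099326-96111964), away from Ttll6. The starts of the 2 genes face each other across 21.8 kb. It stood at 4.51, 5.16 and 3.18 normalized TPM in control, 4.09, 5.66 and 3.64 in cHet and 1.02, 0.479 and 0.536 in cKO. The 3 cKO values lay below all of the other 6, at 15.8% of the control mean on average, while cHet and control overlapped. The log2 difference was -2.03 from control and -2.08 from cHet, and 0.056 between cHet and control. Leaving out the neuron-high library of each genotype gave a difference from control of -1.82.

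The other annotated neighbours were Gm22423 upstream and Gm11535 and Hoxb13 downstream, of which Hoxb13 was listed at 0 in all 9 libraries and the others had no row in the table. A wider window of 500 kb on each side, taken after the values were seen, held 18 tested genes besides Ttll6. Apart from Calcoco2, the other 17 had log2 differences between cKO and control of -0.62 to 0.055. All of these but Snf8 (0.055) and Ube2z (0.0078) were below 0, beside a median of -0.023 over all genes. Hoxb8 (-0.62) and Phospho1 (-0.54) were the lowest, and none of the 17 was called. Ube2z, a ubiquitin-conjugating enzyme gene beyond Calcoco2, stood at 29.6 to 37.8 in control, 31.4 to 33.7 in cHet and 33.2 to 36.1 in cKO.

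**Figure D4:**
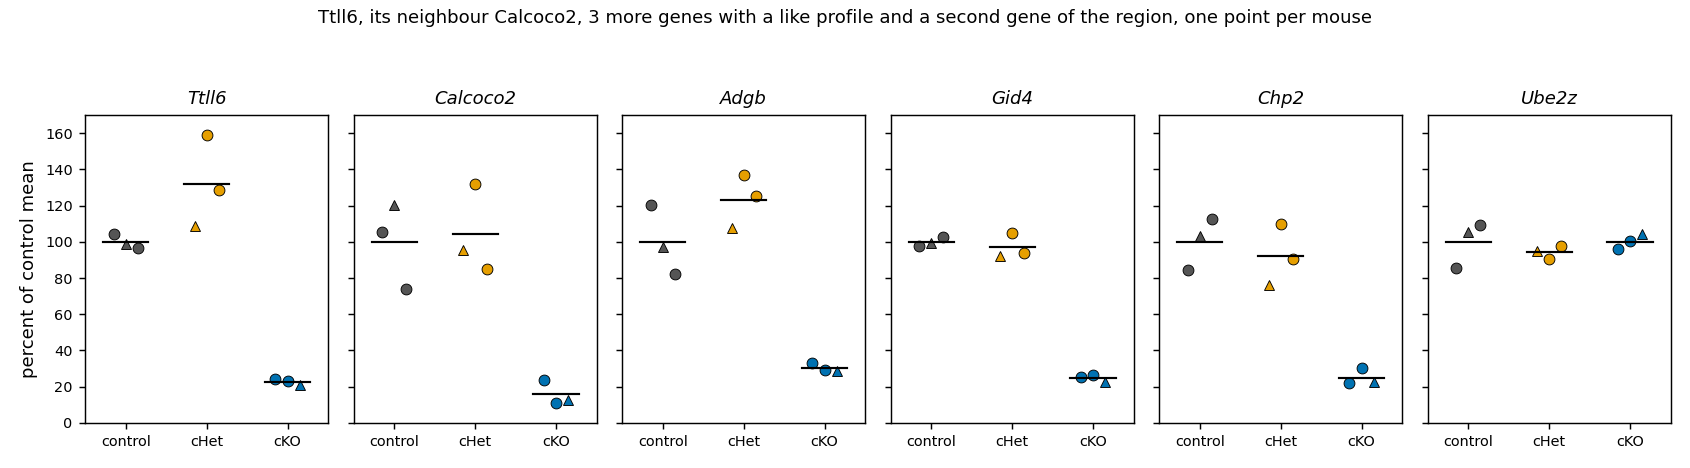
Levels of Ttll6, Calcoco2, Adgb, Gid4, Chp2 and Ube2z as a percent of each gene's control mean (vertical axis), with 1 point per mouse, a triangle for the library of each genotype highest in neuron markers, and a line at the group mean. The first 5 genes stand at 15.8% to 30.3% of control on average in cKO nerves, and Ube2z stays near 100%.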

How the data were processed

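RNA of 9 sciatic nerves (Trizol extraction, TruSeq libraries) was measured by the authors. The deposited table gives 1 signal per gene and library, in TPM normalized between libraries. Tools named in the processing notes of the submitters were kallisto 0.44.0 and sleuth 0.30.0, with the build GRCm38. How the libraries were scaled and whether they were stranded was not given in the sources used here. TPM keep no depth. Groups came from the sample titles, and 0 per-sample columns were left unused. Replicates carry mouse numbers that groups do not share, so none were paired.

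Values were taken as log2(value + 0.5) for genes with a mean of at least 1, and 1 model over 9 libraries and 3 groups was fitted in R 4.3.3 by limma 3.58.1 (eBayes with trend), with Benjamini-Hochberg adjustment over all 15014 genes and a threshold of 0.05. The fit was tested on simulated data. Symbols were matched by identifier for 35471 genes, and positions came from GENCODE M21. Promoters of RefSeq matched 8 of the 10 genes. The 10 genes and the lists were chosen with earlier results of these data known. By the rule for named genes, the text names the 10 genes, the other family members by level, list members that pass (up to 4 a list), Tardbp, Cnp, the 5 genes most like Ttll6 and 2 annotated neighbours on each side. Vash1, Spast, Tuba1a, Tuba1b, Atat1, Fignl2, Fign, Katnal1 and Lrrc49 were named after their values were seen. So were Ube2z, Snf8, Hoxb8, Phospho1 and the cilia genes given by name. Cstpp1 and Matcap1 were listed and not matched. Alternatives covered the pseudocount, the filter, the scaling, the model and left-out libraries.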

Additional observations from a re-analysis of the deposited data

How the results depend on the processing

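Under 22 alternatives none of the 9 genes other than Ttll6 was called in any comparison. The log2 difference of Ttll6 between cKO and control moved to -2.06 with a pseudocount of 0.1 and to -1.58 with one of 1, and stayed between -1.84 and -1.77 with any 1 library left out. Against cHet it moved to -2.44 and -1.92 with these pseudocounts and to -2.37 with only the libraries whose genotype field matches the title. Between cHet and control it lay between 0.22 and 0.48 and was not called (limma adjusted p of 0.968 to 1.0). Of 591 values for the other 9 genes 63 changed sign, and none was called. The differences that changed sign were at most 0.21 in size in the main fit, but some were far larger after the change. That of Ttll7 between cKO and control went from -0.076 to as high as 1.30 with 1 library left out. It was 1.78 with matching genotype fields only, which rests on 1 cKO library. No paired analysis was possible because the groups share no replicate numbers and the labels do not say which mice were litter mates. With sex as a covariate none of the 9 was called.

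The number of all genes called fell from 235 to 50 between cKO and control with only these groups in the fit, to 16 without the 3 libraries high in neuron markers and to 0 with matching genotype fields only, which leaves 1 cKO library that is assumed to vary like the other groups. With 1 library left out it was 50 (without cKO ID-2744) to 179. Between cKO and cHet it went from 256 to 168 without a filter, 848 with array weights, 14 without the 3 libraries high in neuron markers, 0 with matching genotype fields only, and 55 (without cKO ID-2748) to 274 with 1 library left out. Between cHet and control it was 0 to 2. Without the filter, 160 were called between cKO and control. Fewer libraries give these subsets less power, so a lost call there says nothing of stability. The log2 difference of Calcoco2 between cKO and control lay between -2.53 and -1.65. The values carry no counts, so the error of low genes such as Ttll11 or cKO Ttll6 is known from 3 mice alone.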

Other observations

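Of the 5 genes most like Ttll6, 3 lie on chromosome 11 (Gid4, Calcoco2 and Sgcd), as do Ttll6 and Cnp, the site of the Cre insertion. Of the 95 genes called lower in cKO than in control, 15 (15.8%) lie on chromosome 11, against 8.01% of the 14810 tested genes with a position. These 15 include Ttll6, Gid4, Calcoco2, Sgcd and Cnp, which were picked for their pattern or carry the Cre insertion. The count of 15 is thus made up in part of genes already named and is not separate from how these were picked. Cnp begins 4.41 Mb beyond the end of Ttll6. These shares were looked up after the values were seen, and whether position had a part in the levels was not tested.

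Lrrc49, a partner in the TTLL1 complex, moved with the neuron markers: it stood at 73.3 normalized TPM in control mouse ID-2746, 34.1 in cHet mouse ID-2742 and 28.8 in cKO mouse ID-2748, against 10.6 to 20.3 in the other 6 nerves.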
